A study of Homo sapiens with 2 samples.

Results

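The proteasome subunit genes described here are the 40 whose symbol in the gene list of the files is PSMA, PSMB, PSMC or PSMD followed by a digit, out of 36601 genes. The pattern matched 44 symbols, of which 4 antisense transcripts were left out, and none of the matches was a pseudogene. One of the 40, PSMC3IP, shares the symbol but encodes a recombination factor and no subunit, so the sums and counts below use the other 39. Of these, 36 encode subunits or their tissue forms and 3 (PSMD5, PSMD9 and PSMD10) encode chaperones that help to assemble the base. Levels are given as CPM, a gene's unique molecular identifiers (UMIs, each marking 1 captured molecule) scaled to a common library total. A mean of at least 20 CPM over both libraries was reached by 36 of the 39, which are called measured. Missing from those were PSMA8, PSMB11 and PSMB9.

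The proteasome is the large protease that degrades proteins tagged with ubiquitin in the cytosol and nucleus. Its core particle is a barrel of stacked rings in which alpha subunits form the gated ends and beta subunits the inner rings that cut peptide bonds. A regulatory particle caps the barrel, with a base of ATPases that unfold substrates and a lid that removes ubiquitin chains. Dividing cells depend on it, because cyclins and securin are destroyed by it at defined points of the cell cycle. In cells exposed to cytokines some catalytic beta subunits are replaced by immune forms.

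The squashed library came from A549 cells, a human lung adenocarcinoma line of epithelial type, that had been confined with polydimethylsiloxane micropillars. The control library came from A549 cells in 2D culture. Both held live cells sorted after 48 h of recovery for loss of a chromosome reporter, which about 1 in 500 cells shows, so the controls had lost the reporter too. The study asks what a past confinement leaves behind in such cells. Both libraries carry the same batch label. The sources used here do not name the reporter chromosome.

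After filtering, 1930 squashed and 1906 control cells remained with 23328323 and 27482392 UMIs, and the medians per cell were 9330.5 and 12458.5 UMIs. Each condition was 1 library. No difference below therefore has a replicate check, and the 95% intervals are exact and cover counting error only. The libraries shared 4 barcode sequences. Of 6 epithelial markers only the keratins KRT7, KRT8 and KRT18 were measured, the other 3 being under 20 CPM on average, and EPCAM stood at 0 CPM in squashed and 0.18 CPM in control cells. KRT8 stood at 1168 CPM in squashed and 796 CPM in control cells, and KRT18 at 557 against 1691 CPM. None of the fibroblast, immune or endothelial markers was measured, their sums were 6.39, 2.31 and 0.043 CPM in squashed and 7.82, 3.17 and 0.073 CPM in control cells, and PTPRC, CD3E, KDR, CDH5, CLDN5 and COL1A2 were at 0 UMIs in both libraries.

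Proteasome mRNA as a whole took nearly the same share of both libraries. The 39 genes summed to 7688 CPM in squashed against 7784 CPM in control cells, a log2 ratio of -0.02 (95% interval -0.03 to -0.01). In these pooled counts, fewer cells with a transcript of a given gene and fewer copies per cell cannot be told apart. With cells thinned to 2000 UMIs, 1781 of 1782 squashed and 1824 of 1825 control cells held a UMI of the 39 genes. The sign of so small a summed ratio depended on scaling, since it was 0.13 with TMM factors and 0.05 when mitochondrial and ribosomal protein genes were left out of the total. It also depended on PSMD8. Without that gene the sum was 7511 CPM in squashed and 7268 CPM in control cells (0.05, 0.04 to 0.06). TMM moved the median of all measured genes to 0.03, against -0.12 with plain totals, and the counts of genes at least 1.5-fold lower and higher to 297 and 225 of 3995, against 426 and 138 of 4003.

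Gene by gene, 35 of the 36 measured genes lay within 1.5-fold between the libraries. The exception was PSMD8, which was lower in the squashed library. Among all measured genes 10.6% were at least that much lower and 3.45% at least that much higher, so 1 of 36 lower and 0 of 36 higher are not read as a result about the proteasome genes. The higher count was 1 with TMM factors, 2 in cells called G1 and 3 in cells called S. The median log2 ratio of the 36 was 0.03, which is 0.15 above that of all measured genes, and their interquartile range ran from -0.11 to 0.17, against -0.32 to 0.06 for all measured genes. The gap of 0.15 was 0.0086 in cells of 1000 genes or more with mitochondrial shares up to 10%, and 0.0091 in cells called G2/M. Above the median of all genes lay 28 of the 36 (77.8%). Counting intervals lay above 0 for 18 of the 36, below 0 for 12 and across 0 for 6. Of all 4003 measured genes, 840 had intervals above 0, 2061 below 0 and 1102 across it.

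**Figure D1:**
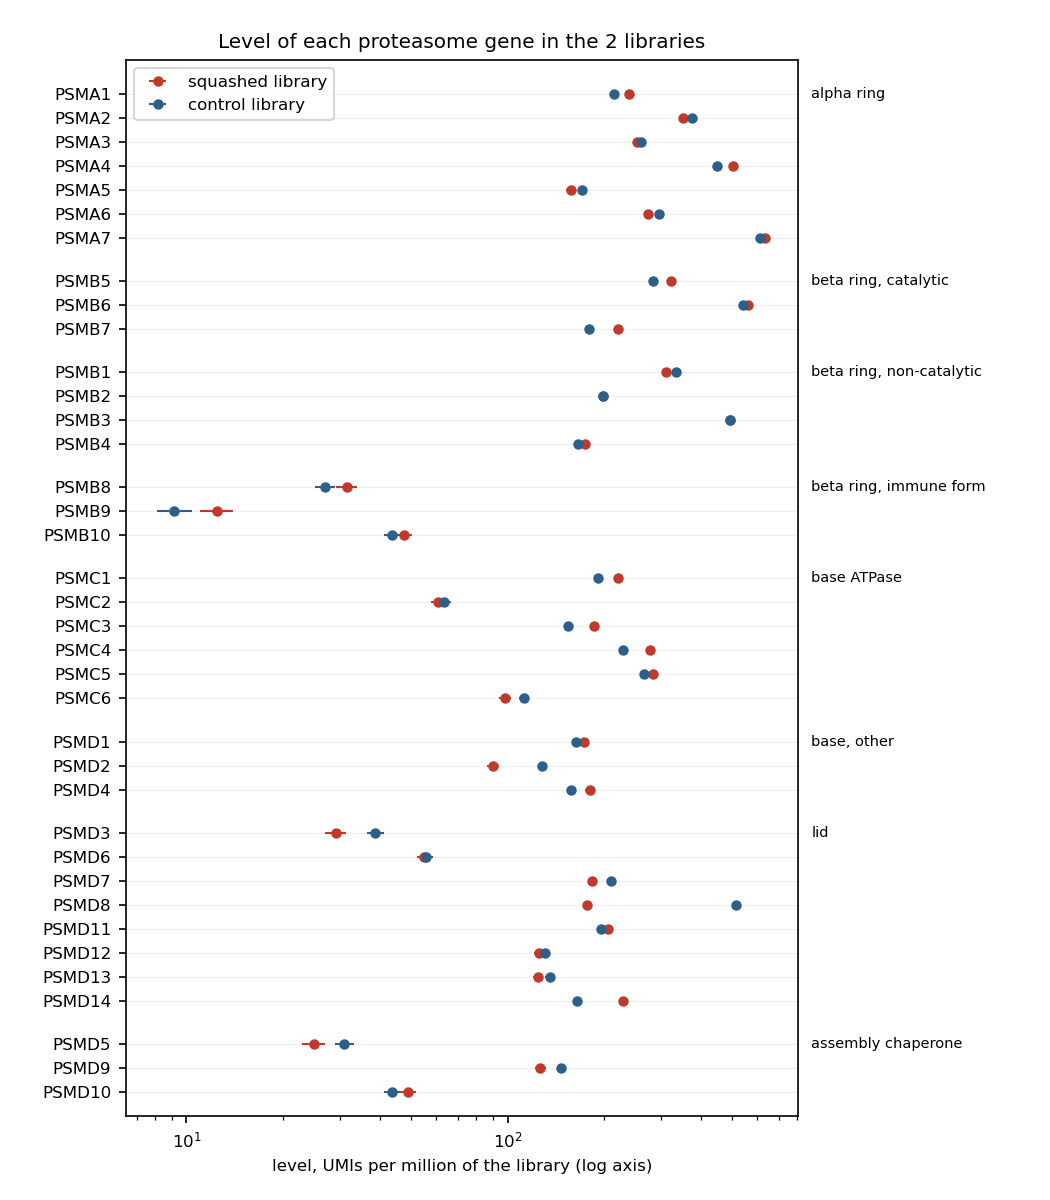
Level of each detected proteasome gene in CPM (log axis), grouped by place in the complex, with the squashed library in red and the control library in blue. Bars are 95% counting intervals. The pair of points lies close together for nearly every gene, while PSMD8 stands at 177 CPM in squashed and 516 CPM in control cells.

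The alpha ring genes, which build the gated ends of the barrel, were among the most abundant. Their sum was 2412 CPM in squashed and 2378 CPM in control cells (log2 ratio 0.02, 0.00 to 0.04). PSMA7 was the highest proteasome gene of both libraries, at 635 CPM in squashed and 613 CPM in control cells (0.05). PSMA4, whose yeast counterpart holds the gate shut, stood at 503 CPM in squashed and 448 CPM in control cells (0.17, 0.13 to 0.20). The others lay near 0, from PSMA1 at 0.15 (238 and 214 CPM in the squashed and control library), through PSMA3 at -0.04 (252 and 260 CPM) and PSMA2 at -0.09 (352 and 375 CPM), to PSMA6 (274 and 297 CPM) and PSMA5 (158 and 171 CPM), both at -0.11. All 7 were within 1.5-fold. PSMA8, the testis form that replaces PSMA7 in germ cells, had 0 UMIs in both libraries, where 3 UMIs would be 0.129 CPM in squashed and 0.109 CPM in control cells.

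The 3 constitutive catalytic genes each had a ratio above 0. They summed to 1105 CPM in squashed and 1002 CPM in control cells (0.14, 0.12 to 0.17). Ratios above 0 were found for 20 of the 36 measured members (55.6%) and for 32.8% of all measured genes. PSMB7, which cuts after basic residues, stood at 220.3 CPM in squashed and 179 CPM in control cells (0.30, 0.24 to 0.36). PSMB5, which cuts after hydrophobic residues and is the main target of bortezomib, stood at 322 CPM in squashed and 283 CPM in control cells (0.19, 0.14 to 0.23). PSMB6, which cuts after acidic residues, was the second most abundant proteasome gene in both, at 562 CPM in squashed and 539.9 CPM in control cells (0.06). The 4 non-catalytic beta genes PSMB1 (-0.10, 311 CPM in squashed and 334 CPM in control cells), PSMB2 (0.00, 198 CPM in both), PSMB3 (0.01, 495 and 492 CPM) and PSMB4 (0.08, 175 and 166 CPM) together stood at 1179 CPM in squashed and 1189.7 CPM in control cells (-0.01, -0.04 to 0.01).

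The immune forms were scarce. PSMB10, the counterpart of PSMB7, stood at 47.5 CPM in squashed and 43.7 CPM in control cells (0.12, 0.00 to 0.24). PSMB8, the counterpart of PSMB5, stood at 31.5 CPM in squashed and 27.1 CPM in control cells (0.22, 0.07 to 0.37). PSMB9, the counterpart of PSMB6, stood at 12.4 CPM in squashed and 9.17 CPM in control cells (0.44, 0.19 to 0.69), under the limit for measured genes. Set against its constitutive counterpart, PSMB10 supplied 17.7% of the pair's UMIs in the squashed library (16.8 to 18.7) and 19.6% in the control library (18.6 to 20.6). The share of PSMB8 was 8.92% in the squashed library (8.32 to 9.56) and 8.73% in the control library (8.14 to 9.35), and that of PSMB9 was 2.16% (1.92 to 2.42) and 1.67% (1.47 to 1.89). PSMB8 and PSMB9 overlap on opposite strands of chromosome 6, and whether counting used the strand is not stated in the labels or headers, so their counts are uncertain to that extent. The thymus form PSMB11 had 0 UMIs in both libraries.

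Of the 6 base ATPase genes, whose products thread substrates into the core, 4 had ratios above 0, against 32.8% of all measured genes. The 6 genes summed to 1127 CPM in squashed and 1016 CPM in control cells (0.15, 0.13 to 0.17). PSMC4 stood at 277 CPM in squashed and 229 CPM in control cells (0.28, 0.23 to 0.33), and PSMC3 at 186 CPM in squashed and 154 CPM in control cells (0.27, 0.21 to 0.33). PSMC1 had a ratio of 0.21 (221 CPM in the squashed, 191 CPM in the control library) and PSMC5 one of 0.10 (284 and 266 CPM). The remaining ATPases were the least abundant of the ring. PSMC6 stood at 98.3 CPM in squashed and 112 CPM in control cells (-0.19, -0.27 to -0.12), and PSMC2 at 60.8 CPM in squashed and 63.5 CPM in control cells (-0.06). PSMC1 has 13 pseudogenes named after it in GENCODE 44, more than any other member, and how reads shared with such copies were counted is not stated in the labels or headers.

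The other base subunits went apart. PSMD2, a scaffold on which shuttle receptors dock, stood at 89.9 CPM in squashed and 128 CPM in control cells (-0.51, -0.59 to -0.44). PSMD1, its partner scaffold, stood at 174 CPM in squashed and 163 CPM in control cells (0.09), and the ubiquitin receptor PSMD4 at 180.1 CPM in squashed and 158 CPM in control cells (0.19, 0.13 to 0.25). The chaperones of base assembly were also mixed. PSMD5 stood at 24.9 CPM in squashed and 31.0 CPM in control cells (-0.32), PSMD9 at 127 CPM in squashed and 147 CPM in control cells (-0.21), and PSMD10, also known as gankyrin, at 49.0 CPM in squashed and 43.7 CPM in control cells (0.17).

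The lid held the extremes of both directions. PSMD14, the enzyme that strips ubiquitin chains from substrates, had the highest ratio of the measured members, with 229.7 CPM in squashed and 164 CPM in control cells (0.48, 0.43 to 0.54). Its partner PSMD7, which has the same fold without activity, stood at 183 CPM in squashed and 210.2 CPM in control cells (-0.20, -0.26 to -0.14). PSMD8, a scaffold subunit whose yeast counterpart is the last to join the lid, stood at 177 CPM in squashed and 516 CPM in control cells (-1.54, -1.59 to -1.49), or 2.91-fold lower in the squashed library. It was the third most abundant proteasome gene in the control library and ranked 21 of 36 in the squashed library. PSMD3, another lid scaffold, stood at 29.1 CPM in squashed and 38.8 CPM in control cells (-0.41, -0.55 to -0.27). The scaffold genes PSMD11 (0.07, 205 CPM in squashed and 196 CPM in control cells), PSMD6 (-0.02, 55.1 and 55.7 CPM), PSMD12 (-0.06, 125 and 131 CPM) and PSMD13 (-0.12, 124 and 135 CPM) were within 1.5-fold. PSMD6 was at -0.60 with cells thinned to 2000 UMIs and at 1.05 in cells called S, so its direction depended on the setting. Without PSMD8 the lid summed to 952 CPM in squashed and 931 CPM in control cells (0.03, 0.01 to 0.06), and with it to 1129 CPM in squashed and 1447 CPM in control cells (-0.36, -0.38 to -0.34).

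**Figure D2:**
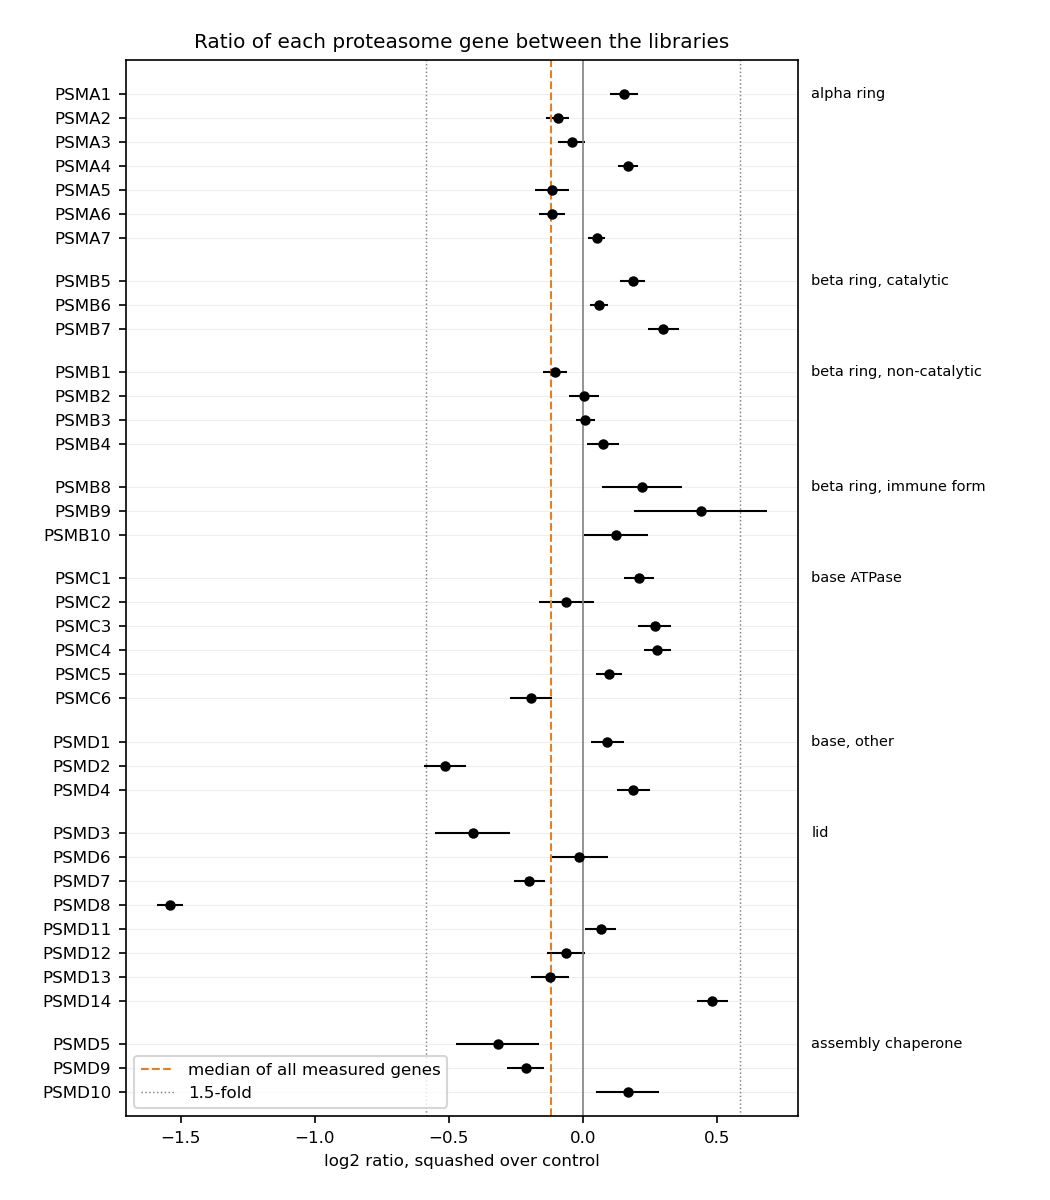
Log2 ratio of squashed over control for each detected proteasome gene, with 95% counting intervals, the median of all measured genes (dashed, -0.12) and the 1.5-fold limits (dotted). PSMD8 at -1.54 is the only gene beyond a limit, and PSMD14 at 0.48 and PSMD2 at -0.51 come nearest among measured genes.

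The PSMD8 difference was seen at the level of single cells. With every cell thinned to 2000 UMIs, 28.8% of the 1782 squashed cells held a PSMD8 UMI (95% interval 26.7 to 31.0), against 64.3% of the 1825 control cells (62.0 to 66.5). The 148 squashed and 81 control cells that were shallower are not in these shares. At 10000 UMIs the shares were 80.4% of 906 squashed and 98.3% of 1190 control cells, and unthinned they were 72.0% and 95.4%. At 10000 UMIs cells held a mean of 1.74 PSMD8 UMIs in the squashed and 5.22 in the control library, with a variance of 1.17 and 1.42 times the mean. These are cells of 1 line, so no cell type that should lack the gene was at hand as a measure of free RNA.

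Only 1.47% of all measured genes had a lower ratio than PSMD8. Among the 247 genes at least as abundant as PSMD8 in the control library, 3 were as low, PSMD8 included. PSMD8 (ENSG00000099341) spans chromosome 19 from 38374563 to 38383850 on the plus strand of GRCh38 in GENCODE 44, and no other gene of the files' list overlaps it there, though 1 pseudogene is named after it. The 11 other measured genes within 1 Mb had a median ratio of -0.17, from -0.70 to 0.86, and none was as low. PSMC4, which lies 1.59 Mb further along the same chromosome, had the second highest ratio of the regulatory particle, 0.28. The canonical PSMD8 transcript is 1518 nt long with a GC content of 57.4%, and the measured members ran from 762 to 4426 nt and from 36.4% to 61.7% GC. Of the 533 measured genes with 55 to 60% GC, 82 were at least 1.5-fold lower, with a median of -0.14, as were 65 of 271 with 60 to 65% GC (-0.19) and 20 of 37 with more (-0.65). The 4 measured members with 55 to 60% GC had a median of -0.18, and the part of base composition in the PSMD8 ratio was not tested.

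Proteasome genes are known to share transcription factors, among them NFE2L1, which binds antioxidant response elements, and NF-Y, which binds CCAAT boxes. RefSeq start sites (GRCh38.p14) were at hand for 34 of the 39 genes. A gene was counted where the 250 bases before any of its listed starts held a match. The element core TGACNNNGC was found on either strand for 8 of the 34 (23.5%), against 13.2% of 27305 genes with such a window. By window the share was 19.5% (8 of 41), against 10.9% of 35116. For PSMA4 and PSMC5 the match lay only before an alternative start, not before that of the canonical transcript. CCAAT was found for 17 of the 34 (50%), against 37.0%. By window its share was 41.5% (17 of 41), against 32.0% of 35116. For PSMA4 and PSMB5 the CCAAT match lay only before an alternative start. Overlapping matches and both strands were counted. The measured genes with the element core (7) had a median ratio of -0.06 and those without it (24) one of 0.03. A match is only a match of letters, and its absence from this window says nothing of the factor.

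The windows of 4 genes are shown, read 5′ to 3′ on the strand of the gene, with matches to TGACNNNGC or CCAAT on either strand in capitals. PSMD8 (chr19:38374321-38374570) and PSMD14 (chr2:161308175-161308424) are the lowest and the highest ratio, PSMB3 (chr17:38752491-38752740) has both motifs with a ratio of 0.01, and PSMD9 (chr12:121888540-121888789) is the member with 2 element cores.
PSMD8: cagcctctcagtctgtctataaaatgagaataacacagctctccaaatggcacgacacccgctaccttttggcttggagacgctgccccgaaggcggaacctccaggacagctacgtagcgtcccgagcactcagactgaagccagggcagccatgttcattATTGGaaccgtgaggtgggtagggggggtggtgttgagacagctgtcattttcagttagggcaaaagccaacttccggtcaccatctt
PSMD14: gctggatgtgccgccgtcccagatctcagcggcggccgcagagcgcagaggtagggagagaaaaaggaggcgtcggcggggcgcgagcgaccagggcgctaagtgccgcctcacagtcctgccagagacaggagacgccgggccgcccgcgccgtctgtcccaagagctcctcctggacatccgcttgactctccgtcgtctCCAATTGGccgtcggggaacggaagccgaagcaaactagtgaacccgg
PSMB3: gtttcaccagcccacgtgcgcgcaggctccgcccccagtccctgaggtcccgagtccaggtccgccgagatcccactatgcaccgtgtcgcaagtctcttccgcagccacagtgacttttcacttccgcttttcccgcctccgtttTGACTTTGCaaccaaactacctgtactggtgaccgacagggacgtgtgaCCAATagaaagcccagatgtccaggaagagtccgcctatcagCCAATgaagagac
PSMD9: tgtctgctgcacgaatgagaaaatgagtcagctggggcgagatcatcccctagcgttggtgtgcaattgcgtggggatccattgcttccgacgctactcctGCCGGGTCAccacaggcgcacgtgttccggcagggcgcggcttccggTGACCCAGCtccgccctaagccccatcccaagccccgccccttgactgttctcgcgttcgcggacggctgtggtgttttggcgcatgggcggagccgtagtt

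PSMD8 has 1 CCAAT match and no element core in its window. PSMD14 has the palindrome that reads CCAAT on both strands, which counts as 2 matches. Genes with the highest and the lowest ratio thus both carry a CCAAT match, and the 15 measured genes with one had ratios from -1.54 to 0.48.

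Genes of subunits that sit in equal number in the complex were far from equal in UMI counts. A UMI of this assay marks the 3′ end of a molecule whatever its length, so CPM was compared between genes without division by length. Differences between genes in capture, or in reads shared with pseudogenes, were not measured. The spans below therefore describe UMI counts and may differ from those of the transcripts. The 14 constitutive core genes spanned 4.03-fold in the squashed library, PSMA5 being the lowest at 158 CPM and PSMA7 the highest. In the control library they spanned 3.70-fold, with PSMB4 lowest at 166 CPM. The 17 genes of the regulatory particle spanned 9.74-fold in the squashed library, between PSMD3 and PSMC5, and 13.3-fold in the control library, between PSMD3 and PSMD8. In the order of levels, the counting intervals of neighbours overlapped in 19 of 35 pairs in the squashed and 15 of 35 in the control library. Over the 36 genes the log2 levels in the libraries had a Pearson's r of 0.96 and a Spearman's rho of 0.93, given as a description over genes, which are not independent.

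Within each library, proteasome mRNA differed by phase call. Calls came from marker lists of the cell cycle, which hold no proteasome gene, on cells thinned to 2000 UMIs. G1 is the call left for cells with no positive score on either list, so it can also take in cells in which few genes were detected. In cells called G2/M the 39 genes summed to 8869.5 CPM, against 6391 CPM in cells called G1, in the squashed library (log2 ratio 0.47, 0.46 to 0.49). In the control library they summed to 9321 CPM in cells called G2/M and 5789 CPM in cells called G1 (0.69, 0.67 to 0.70). With every cell at 2000 UMIs these ratios were 0.55 in the squashed and 0.76 in the control library. In both libraries 33 of the 36 measured genes were higher in G2/M-called cells, where 71.4% of all measured genes were so in the squashed and 61.9% in the control library. At least 1.5-fold higher were 15 of 36 in the squashed library (41.7%, against 36.4% of all measured genes) and 23 of 36 in the control library (63.9%, against 31.7%). The median of the 36 was 0.52 in the squashed and 0.74 in the control library, and that of all measured genes was 0.35 in the squashed and 0.23 in the control library.

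The lid scaffold PSMD12 had the highest ratio of G2/M over G1 in both libraries, with 1.16 in the squashed library (171 CPM in G2/M-called, 76.7 CPM in G1-called cells) and 1.23 in the control library (176 CPM in G2/M-called cells). Next in the squashed library came PSMD5 at 1.14, and in the control library PSMC3 at 1.13. PSMD11 had 0.97 in the squashed and 1.01 in the control library, and PSMD7 1.04 and 0.85. Of the 3 constitutive catalytic genes only PSMB6 was higher in G2/M-called cells. PSMB5 had -0.15 (-0.21 to -0.08) in the squashed and -0.06 (-0.12 to 0.01) in the control library, and PSMB7 had -0.06 (-0.14 to 0.03) in the squashed and -0.19 (-0.28 to -0.11) in the control library. The third catalytic gene, PSMB6, had 0.52 in the squashed and 0.82 in the control library. PSMB8, an immune form, was lower in G2/M-called cells of both libraries, with -0.89 (22.0 CPM in G2/M-called, 40.9 CPM in G1-called cells) in the squashed and -1.17 (17.5 and 39.6 CPM) in the control library. The immune form PSMB10 was higher in both, with 0.28 (0.10 to 0.46) in the squashed and 0.45 (0.27 to 0.63) in the control library. PSMB9, under the limit for measured genes, had -0.44 (-0.80 to -0.09) in the squashed and 0.18 (-0.21 to 0.57) in the control library.

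**Figure D3:**
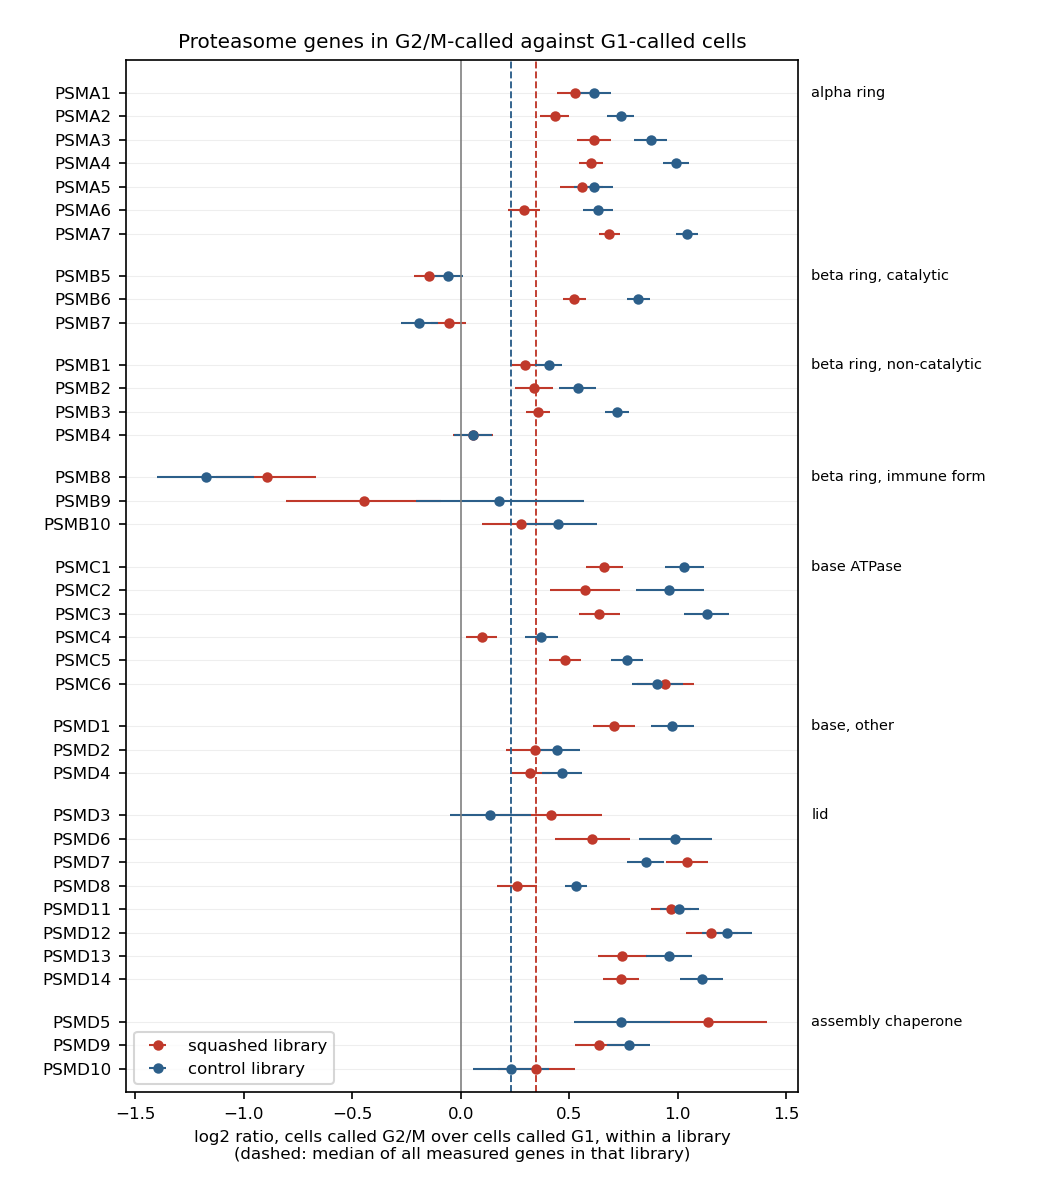
Log2 ratio of G2/M-called over G1-called cells within each library for each detected proteasome gene, with 95% counting intervals; squashed in red, control in blue, dashed lines at the median of all measured genes (0.35 in the squashed, 0.23 in the control library). Nearly all genes lie right of 0 in both libraries, while PSMB5, PSMB7 and PSMB8 lie left of it. PSMB9 lies left of 0 in the squashed library only.

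Mitochondrial share and depth ran with the phase calls. The median mitochondrial share of G2/M-called cells was 5.72% and that of G1-called cells 8.58% in the squashed library, and 4.75% and 10.8% in the control library. Median depths were 11291 UMIs in G2/M-called and 9033 UMIs in G1-called cells of the squashed library, and 12033 and 14878 UMIs in the control library. Median numbers of detected genes were 2407 in G2/M-called and 1432 in G1-called cells of the squashed library, and 2642 and 2740 in the control library. The part of this difference in the ratios by phase call was not tested. Within cells of up to 5% mitochondrial UMIs the proteasome sum was 9154 CPM in G2/M-called and 5377 CPM in G1-called cells of the squashed library. There it was 10079 CPM in G2/M-called and 5233 CPM in G1-called cells of the control library. In the class over 5 to 10% it was 9027 CPM and 6162 CPM in the squashed and 9538 CPM and 5408 CPM in the control library. In the class over 10 to 20% it was 8417 CPM and 6774 CPM in the squashed and 7288 CPM and 6015 CPM in the control library. The higher level in G2/M-called cells was thus seen in all 3 mitochondrial classes of both libraries. The G2/M calls made up 46.7% of squashed and 59.2% of control cells, and free RNA, which the calls also read, was not estimated.

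The small gap between the libraries in the proteasome sum changed sign between classes of cells. In G1-called cells the squashed library stood at 6391 CPM and the control library at 5789 CPM (0.14, 0.13 to 0.16), and in G2/M-called cells at 8869.5 CPM and 9321 CPM (-0.07, -0.08 to -0.06). In the 72 squashed and 66 control cells called S the ratio was 0.20 (0.16 to 0.24). It was 0.16 in cells of 20000 UMIs and over, and -0.13 and -0.19 in those of 5000 to under 20000 and under 5000 UMIs. Mitochondrial classes gave -0.18 up to 5%, -0.10 over 5 to 10% and 0.22 over 10 to 20%. The differences between classes were not tested, since each rests on 1 library per condition.

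**Figure D4:**
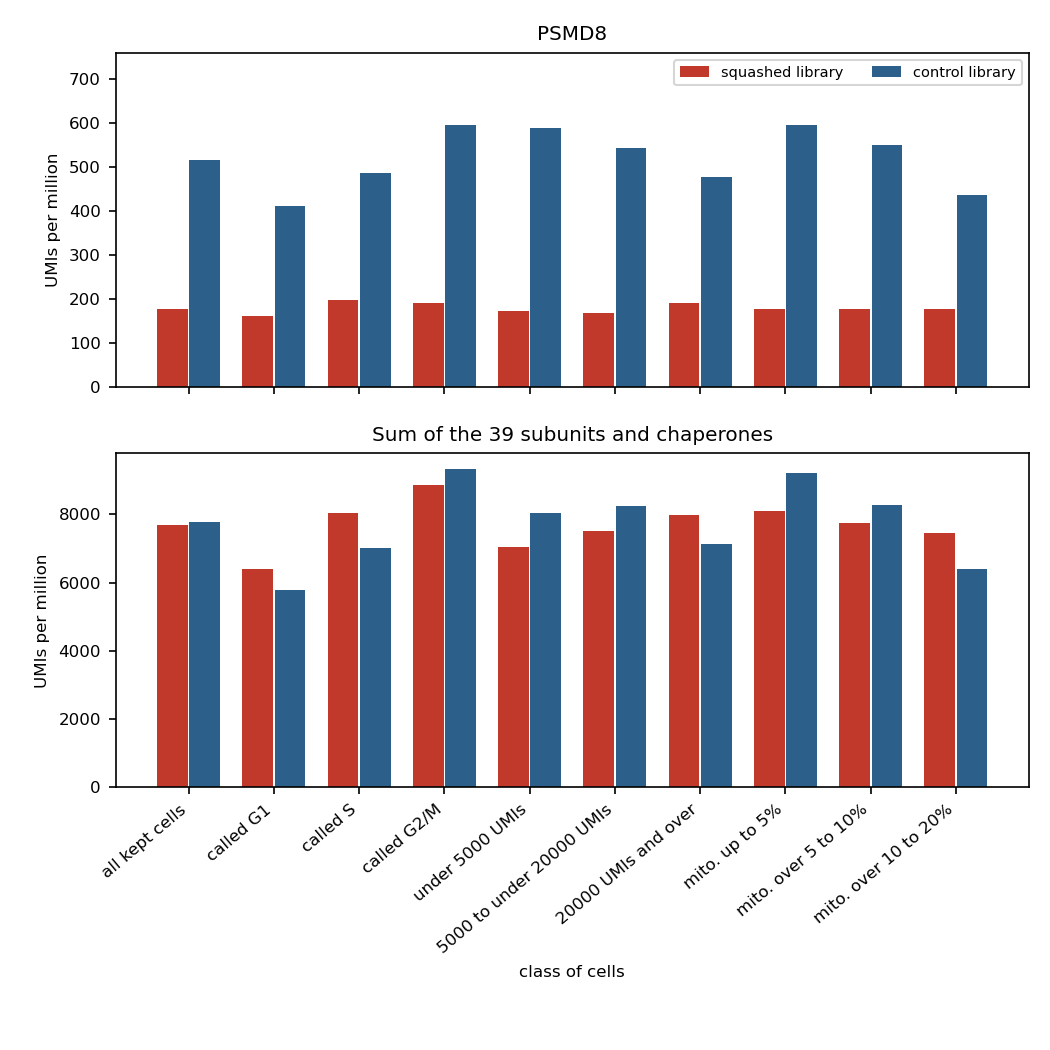
PSMD8 (top) and the sum of the 39 subunits and chaperones (bottom) in CPM by class of cells, with the squashed library in red left of the control library in blue; mito. is the mitochondrial share of a cell's UMIs. PSMD8 lies between 160 and 198 CPM in the squashed and 411 and 594 CPM in the control library, while the sums stay close and change order between classes.

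PSMD8 kept its direction in each of the 9 classes, with ratios from -1.77 in cells under 5000 UMIs to -1.29 in cells called S. Its level in the squashed library was lowest in G1-called cells (160 CPM) and highest in S-called cells (198 CPM). In the control library it was lowest in G1-called cells (411 CPM) and highest in G2/M-called cells (594 CPM). In barcodes removed for holding under 500 genes the ratio was -1.20 (-1.63 to -0.78). PSMD2 (-0.99 to -0.38) and PSMD3 (-0.72 to -0.26) were also lower in all 9 classes, and PSMD14 (0.27 to 1.05), PSMC3 (0.14 to 0.64), PSMC4 (0.07 to 0.73), PSMD4 (0.08 to 0.42) and PSMB7 (0.01 to 0.37) higher in all 9. The other 28 measured genes changed sign between classes. How many of all measured genes did so was not computed, so these counts are not read as particular to the proteasome genes. The 9 classes split the same kept cells by phase call, depth and mitochondrial share. In removed barcodes PSMD2 stood at 0.19 under 500 genes and 0.23 over 20% mitochondrial UMIs, with counting intervals across 0. PSMB7 stood at -0.41 in the latter, and PSMC4 at -0.03 in the former. PSMD3, PSMD14, PSMC3 and PSMD4 kept their sign in both.

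**Figure D5:**
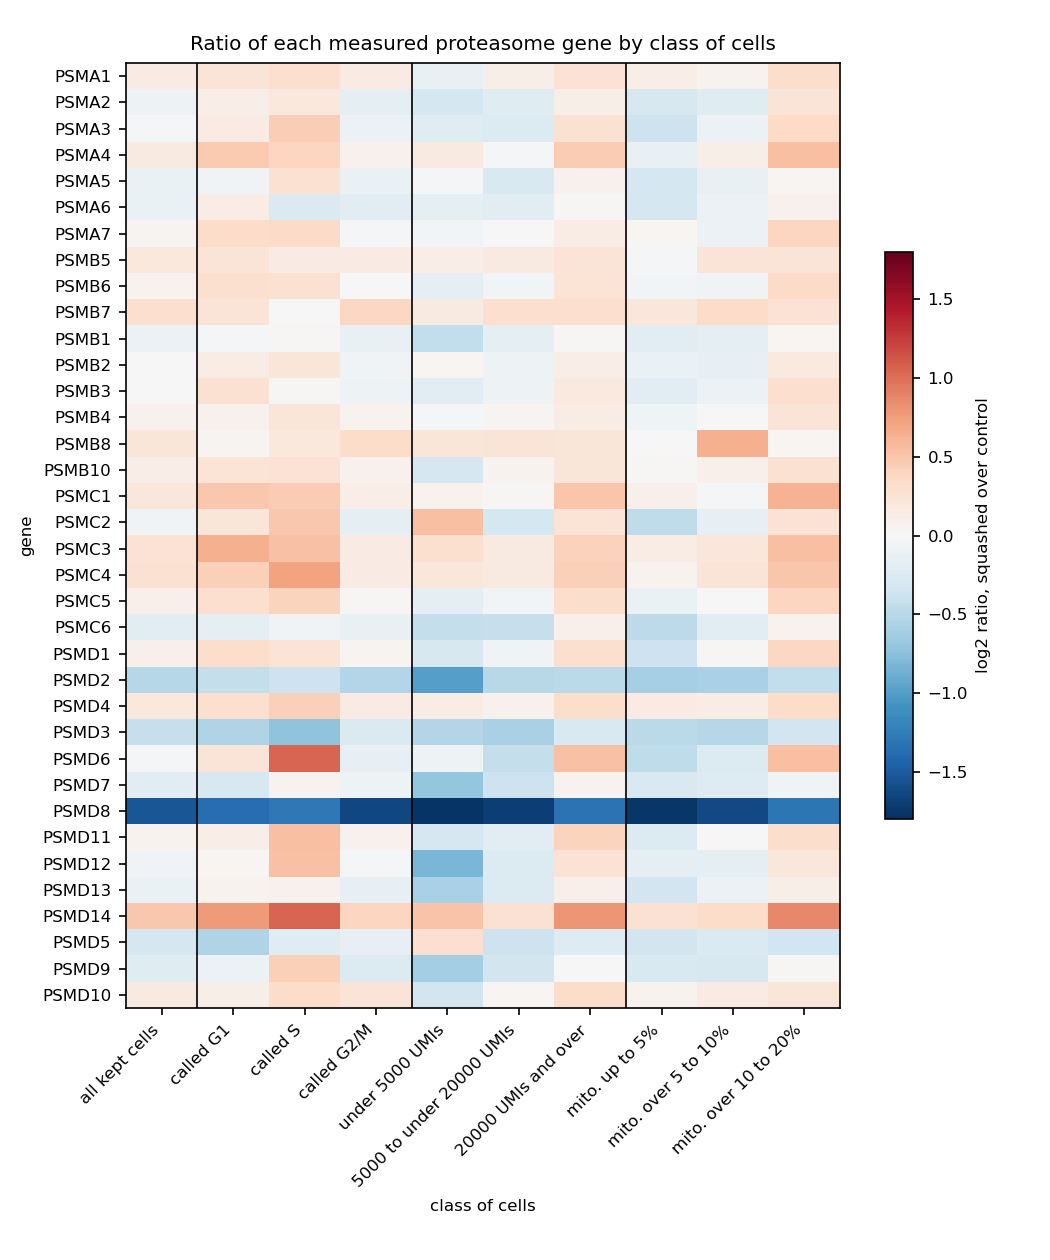
Log2 ratio of squashed over control (blue lower, red higher in the squashed library) for each measured proteasome gene in all kept cells and in 9 classes of cells by phase call, UMIs and mitochondrial share. The PSMD8 row is dark blue throughout, PSMD14 red throughout, and the columns over 10 to 20% mitochondrial share and of 20000 UMIs and over are redder than the columns beside them.

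At 10000 UMIs the median cell held 79 UMIs of the 39 genes in the squashed and 81 in the control library. The middle 90% of cells ran from 40.25 to 111 UMIs in the squashed and from 36.5 to 117 UMIs in the control library. The variance was 5.84 times the mean in the squashed and 8.27 times in the control library, where counting alone would give about the mean. Core and regulatory particle UMIs went together over cells. Pearson's r between their sums was 0.59 over 906 squashed cells and 0.71 over 1190 control cells, as a description of cells that share a library and, in part, a phase call. PSMA7, the gene with the highest mean (6.24 UMIs in the squashed and 6.19 in the control library), had a variance of 2.21 times the mean in the squashed and 2.48 times in the control library, a measure that rises with the mean.

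Of the genes around the proteasome, the activator subunits PSME1 and PSME2, which open the core without ubiquitin, both had ratios above 0. PSME1 stood at 268 CPM in squashed and 160 CPM in control cells (0.75, 0.69 to 0.80), past 1.5-fold, and PSME2 at 271 CPM in squashed and 226 CPM in control cells (0.26). The inhibitor PSMF1 stood at -0.13, and of 4 measured genes in this list 1 was past the fold. Among 6 measured proteasome-associated proteins 1 was at least 1.5-fold lower. This was ADRM1, the ubiquitin receptor of the base that carries another symbol, at 51.1 CPM in squashed and 139 CPM in control cells (-1.44, -1.53 to -1.34). Its transcript has 63.2% GC, and of the 271 measured genes with 60 to 65% GC, 65 were at least 1.5-fold lower. The part of base composition in the ADRM1 ratio was not tested. The scaffold ECPAS (-0.53) and the deubiquitinase USP14 (-0.27) were within the fold. All 5 measured assembly factors were within it, PSMG3 (-0.45), PSMG1 (-0.23) and PSMG2 (-0.19) having the largest ratios. The median of the associated proteins was -0.26 and that of the assembly factors -0.19, beside -0.12 for all measured genes.

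The transcription factor NFE2L1, which restores proteasome gene expression when activity drops, stood at 43.9 CPM in squashed and 35.0 CPM in control cells (0.33, 0.20 to 0.46). NGLY1, which removes sugars from it, was at -0.35 and NFE2L2, the oxidative stress factor, at -0.11, and none of the 3 measured genes of this list passed the fold. Of 5 measured ubiquitin and E1 genes none passed it either. UBA1, the main ubiquitin-activating enzyme, was nearest at 78.1 CPM in squashed and 52.3 CPM in control cells (0.58, 0.48 to 0.68). RPS27A, which encodes ubiquitin fused to a ribosomal protein, was at -0.05. None of 7 measured shuttle and p97 genes passed the fold, with FAF2 at -0.32 and RAD23B at -0.15.

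Values of other multi-subunit complexes were as follows. In the COP9 signalosome, a relative of the lid, 8 of 9 measured genes were within 1.5-fold, with a median of 0.11. COPS9, its smallest subunit, was past it at 431 CPM in squashed and 286 CPM in control cells (0.59, 0.55 to 0.63), COPS5 stood at -0.22 and COPS2 at 0.20. All 8 genes of the CCT chaperonin were within it, with a median of -0.09, TCP1 at -0.39, CCT4 at -0.15 and CCT3 at -0.12. No difference between these lists and the proteasome was tested. Of the genes that present peptides cut by the proteasome, HLA-B was lower in the squashed library (17.1 CPM, against 44.5 CPM in the control library, -1.37), while TAPBP (-0.12) and B2M (0.10) were within the fold.

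Barcodes left out by the filter held proteasome UMIs as well. In 673 squashed and 384 control barcodes of under 500 genes the sum was 4985 CPM and 3715 CPM. In 519 squashed and 270 control barcodes with over 20% mitochondrial UMIs it was 3559 CPM and 4144 CPM. Both lie under the sums of the kept cells. PSMC3IP, the gene that shares the symbol only, stood at 15.4 CPM in squashed and 10.8 CPM in control cells (0.51, 0.28 to 0.74).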

How the data were processed

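The deposited matrices hold raw counts of UMIs per gene and barcode, per the file headers, from a 10x Genomics Chromium 3.1 kit sequenced on a NovaSeq 6000, per the labels. Cell Ranger aligned reads to GRCh38. The labels' design text names release 5.0.1, whereas the headers of the deposited matrices name 4.0.0. The submitters' processing notes also name R 4.3.2 without a step. The rule that called barcodes as cells is not stated in either.

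Barcodes needed 1000 UMIs, 500 detected genes and a mitochondrial share no higher than 20%, which kept 61.6% of 3132 squashed and 74.0% of 2574 control barcodes. Scrublet marked 15 squashed and 16 control cells as doublets, which stayed in except in one alternative. UMIs were summed per library and scaled to CPM by total UMIs. Log2 ratios (squashed over control) added 0.5 count to each sum, with an exact Clopper-Pearson interval. With 1 library per group no test was possible. Phases were called with scanpy 1.11.5 and TMM factors came from edgeR 4.0.16 (R 4.3.3), with sums and intervals in Python 3.11.15 (scipy 1.17.1, pandas 2.3.3). GENCODE 44 gave gene positions, lengths and GC content for the 36366 of 36601 genes whose identifier it holds, and RefSeq gave the promoter windows.

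Every member may be named, and up to 3 measured genes of largest absolute ratio from each pathway list, with the measured MHC class I genes; a few genes this rule names are not reported here. Members and lists were chosen with earlier results of these data known. The comparison of G2/M-called with G1-called cells within a library was added after the class levels had been seen. The steps were tested on simulated data.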

Additional observations from a re-analysis of the deposited data

Results flagged for a closer look

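In the following cases the ratio of squashed over control had counting intervals on opposite sides of 0 in 2 classes of cells. For single genes only gaps of at least 1.5-fold are listed. The difference between classes was not tested, and each value rests on 1 library per condition.

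The summed level of the 39 subunits and chaperones had a log2 ratio of 0.14 in cells called G1 and 0.20 in cells called S, and -0.072 in cells called G2/M. By depth it was -0.19 under 5000 UMIs, -0.13 from 5000 to under 20000 UMIs and 0.16 at 20000 UMIs and over. By mitochondrial share it was -0.18 up to 5%, -0.10 over 5 to 10% and 0.22 over 10 to 20%.

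The lid gene PSMD6 had 1.05 in S-called and -0.15 in G2/M-called cells, -0.43 from 5000 to under 20000 UMIs and 0.52 at 20000 UMIs and over, and -0.46, -0.25 and 0.55 in the mitochondrial classes from low to high. The ATPase gene PSMC2 had 0.49 in S-called and -0.18 in G2/M-called cells, and -0.45 and 0.26 in the lowest and highest mitochondrial class. In those same mitochondrial classes PSMD1 had -0.38 and 0.37, PSMA3 -0.37 and 0.35, and PSMA4 -0.13 and 0.55. The chaperone PSMD9 had 0.44 in S-called and -0.25 in G2/M-called cells. PSMD12 had -0.82 under 5000 UMIs and 0.26 at 20000 UMIs and over.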

How the results depend on the processing

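PSMD8 kept its direction and its place past 1.5-fold in all 13 alternatives, with ratios from -1.69 to -1.29. Of the 36 measured genes 9 kept a ratio above 0 in all of them and 5 one below 0, while 22 changed sign in at least one. How many of all measured genes kept their sign was not computed. These counts are therefore not read as a result about the proteasome genes. The alternatives without a filter on low values and at 50 CPM change only which genes count as measured. A gene's own ratio is the same there by construction, so for single genes they are no check.

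The summed log2 ratio, -0.02 as reported, was -0.043 with every deposited barcode, -0.15 in cells of 1000 genes or more with mitochondrial shares up to 10%, -0.093 with every cell counted once, -0.11 at 2000 UMIs and -0.072 in G2/M cells. Above 0 it was 0.13 with TMM scaling, 0.048 without mitochondrial and ribosomal protein genes, 0.14 in G1 cells and 0.20 in S cells. The median of the members less that of all genes, 0.15, was 0.14, 0.0086, 0.10, 0.11 and 0.0091 in the first 5 of these settings in that order, and 0.17 without mitochondrial and ribosomal protein genes, 0.34 in G1 cells, 0.28 in S cells, 0.22 without a filter on low values and 0.084 at 50 CPM.

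Members at least 1.5-fold lower numbered 2 with every cell counted once (PSMD2, -0.59), at 2000 UMIs (PSMD6, -0.60) and in S cells (PSMD3, -0.72), against PSMD8 alone otherwise. Members higher by that size numbered 1 with TMM scaling (PSMD14, 0.63), 2 in G1 cells (PSMD14, 0.76, and PSMC3, 0.64) and 3 in the few S cells (PSMD6 and PSMD14, both 1.05, and PSMC4, 0.73), against 0 otherwise. Leaving out doublets or using a prior of 5 counts changed neither count. Over all measured genes, those lower and higher by 1.5-fold numbered 426 and 138 of 4003 as reported. They numbered 478 and 130 of 3730 with every cell counted once, and 557 and 133 of 3708 at 2000 UMIs. In G1 cells they were 830 and 168 of 3688, and in S cells 555 and 387 of 4344. TMM scaling gave 297 and 225 of 3995. Without mitochondrial and ribosomal protein genes they were 532 and 206 of 5529. Without a filter on low values they were 5725 and 3746 of 22206, and at 50 CPM 172 and 92 of 1986. The causes of these changes were not tested. The planned protein identities were not run. Shares of cells with a UMI depend on depth by construction.

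No paired analysis was possible because each condition is 1 library.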
